A study of Mus musculus with 6 samples.

Results

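The genes described here are 36 mouse genes of the autophagy pathway, taken by symbol from the 23398 genes of the deposited table: the MiT/TFE transcription factors, the cargo receptors, the Atg8 family, the ULK1 initiation complex, the ATG9, ATG2 and WIPI proteins, the class III lipid kinase complexes and the conjugation system. All 36 symbols were found, each in 1 row. The series measured RNA from bone marrow derived dendritic cells, antigen-presenting cells grown in culture from mouse marrow, in 3 libraries of cells exposed for 12 hours to Ca(OH)2, that is calcium hydroxide, nanoparticles and in 3 libraries of cells given vehicle. Both groups were cultured in the same way, and the treatment is the difference named between them. No strain, genotype, age or nanoparticle dose is named in the sources used here. Nothing says whether the libraries of a group came from separate cultures or animals, so p-values measure the spread between these libraries, which may be technical.

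Macroautophagy encloses part of the cytoplasm in a double membrane, the autophagosome, which then fuses with the lysosome. The ULK1 kinase complex starts the process, a class III phosphatidylinositol 3-kinase marks the growing membrane, and 2 ubiquitin-like conjugation reactions attach Atg8 proteins (LC3 and GABARAP) to its lipid. Cargo receptors such as p62 bind ubiquitinated cargo on 1 side and Atg8 proteins on the other, and TFEB, TFE3 and MITF switch on lysosomal and autophagy genes. In dendritic cells the pathway is known to deliver cytosolic material to MHC class II compartments. RNA levels do not measure autophagic flux.

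Levels are in FPKM, fragments per kilobase of exon after a scaling between libraries, so genes can be compared with each other. Reads recovered from these values numbered 17285074 to 18221986 in the vehicle and 17792967 to 21980078 in the nanoparticle libraries. Nanoparticle library 1 stood apart: its log2(FPKM + 1) correlated with nanoparticle libraries 2 and 3 at 0.9423 and 0.9282 over 10682 genes, against 0.9895 between libraries 2 and 3 and at least 0.9926 between vehicle libraries. Results are therefore given with and without it. Of the markers checked, Itgax (CD11c) stood at 442 to 456 FPKM with vehicle and 248 to 398 FPKM with nanoparticles, whereas Flt3, a receptor of dendritic cell precursors, was close to 0 in all libraries. Calls are defined below, and of all 10682 tested genes 17.0% were called higher with nanoparticles and 16.2% lower. The summed level of 11 dendritic cell markers was 522 to 528 FPKM with vehicle and 330 to 474 FPKM with nanoparticles (1 of 8 tested higher, 4 lower), and that of 10 macrophage markers 943 to 1071 and 862 to 1102 FPKM (3 of 9 tested higher, 4 lower). For 12 neutrophil markers it was 266 to 299 and 185 to 257 FPKM (2 of 4 tested higher, 1 lower). Mmp8 made up most of this sum, at 230 to 259 FPKM with vehicle and 129 to 133 FPKM with nanoparticles, while S100a8 was higher with nanoparticles (means of 34.9 and 83.1 FPKM), and Ly6g, Mpo and Retnlg were at 3 reads or fewer in all libraries. Mast cell and basophil markers (1.35 to 2.6 and 1.17 to 2.65 FPKM, 0 of 2 tested called) and lymphocyte markers (0.168 to 0.512 and 0.0382 to 0.28 FPKM, none tested) were near 0. The part of these markers in the results below was not tested, and in bulk RNA fewer cells of a type and less RNA per cell cannot be told apart.

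Promoters are shown for 4 of the genes: Sqstm1 and Optn, the receptors with the largest increases below, and Atg3 and Atg7, whose promoters hold the extended element that MiT/TFE factors are known to bind. They come from RefSeq (GRCm38.p6), run 5′ to 3′ from 250 bases before to 50 bases after the annotated start, and carry in capitals any match, on either strand, to CACGTG (the E box), GTCACGTG (the extended element, which contains an E box), TGACNNNGC (NRF2), GGANNTTCC (NF-kappaB) or TTCNNTTTC (interferon-stimulated element). They lie at chr11:50210771-50211070 (Sqstm1, minus strand), chr2:5064068-5064367 (Optn, minus strand), chr16:45158579-45158878 (Atg3, plus strand) and chr6:114670846-114671145 (Atg7, plus strand). The Atg7 window lies inside the gene as GENCODE annotates it, downstream of its first start.
Sqstm1: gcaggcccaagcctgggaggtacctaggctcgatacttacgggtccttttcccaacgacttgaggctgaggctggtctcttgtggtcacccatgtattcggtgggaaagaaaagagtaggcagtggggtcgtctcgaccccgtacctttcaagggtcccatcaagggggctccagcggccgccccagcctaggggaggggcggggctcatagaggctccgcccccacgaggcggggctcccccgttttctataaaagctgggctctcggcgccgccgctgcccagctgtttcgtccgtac
Optn: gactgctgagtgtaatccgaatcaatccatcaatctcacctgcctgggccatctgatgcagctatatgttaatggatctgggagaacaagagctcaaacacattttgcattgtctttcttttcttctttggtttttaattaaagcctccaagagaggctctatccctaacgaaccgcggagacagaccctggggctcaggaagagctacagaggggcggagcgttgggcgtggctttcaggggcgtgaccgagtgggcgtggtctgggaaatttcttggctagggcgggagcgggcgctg
Atg3: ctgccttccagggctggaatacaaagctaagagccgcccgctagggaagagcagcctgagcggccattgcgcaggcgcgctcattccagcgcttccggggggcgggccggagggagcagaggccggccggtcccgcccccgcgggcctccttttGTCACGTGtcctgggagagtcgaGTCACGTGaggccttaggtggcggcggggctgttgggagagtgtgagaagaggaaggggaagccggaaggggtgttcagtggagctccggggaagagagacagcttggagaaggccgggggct
Atg7: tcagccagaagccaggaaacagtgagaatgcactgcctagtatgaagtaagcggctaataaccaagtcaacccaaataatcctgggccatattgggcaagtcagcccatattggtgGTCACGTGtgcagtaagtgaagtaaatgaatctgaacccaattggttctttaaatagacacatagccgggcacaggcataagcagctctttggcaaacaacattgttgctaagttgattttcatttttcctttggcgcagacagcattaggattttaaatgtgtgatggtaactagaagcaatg
The Sqstm1 and Optn windows held no match to any of these letters. Atg3 carried the extended element at 94 and 71 bases before its start (counted at the E box), and Atg7 at 132 bases before. Promoters were matched for 30 of the 36 genes, 38 promoters in all. The E box was in 5 of the 38 (13.2%: Atg14, Atg3, Atg5, Atg7 and Rubcn) and in 7.15% of all 32851 promoters of the same length. The extended element was in 3 of the 38 (7.89%: Atg14, Atg3 and Atg7) and in 2.25% of all. The NRF2 letters were in 13.2% of the 38 and 12.4% of all, the NF-kappaB letters in 5.26% and 4.26%, and the interferon-stimulated letters in 7.89% and 8.56%. These matches are descriptions and show no binding.

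With nanoparticles 6 of the 35 tested genes rose (Sqstm1, Optn, Atg101, Wipi1, Atg10 and Atg12), 3 fell (Calcoco1, Ulk2 and Atg7) and 26 did not pass the threshold. Atg16l2 was not tested, as it reached 1 FPKM in no library. A gene was called at a limma adjusted p under 0.05, Benjamini-Hochberg over all 10682 genes that reached 1 FPKM in 3 or more libraries. The share of autophagy genes called higher was 17.1%, against 17.0% of all tested genes, and the share called lower was 8.57%, against 16.2%. The median log2 change was 0.11 for the 35 genes and -0.00103 for all tested genes, and the range was -0.87 (Tfeb, not called) to 2.61 (Sqstm1). Without nanoparticle library 1, 11 of the 35 (31.4%) were called higher and 8 (22.9%) lower, against 34.3% and 30.5% of all tested genes, and all 9 first calls remained. All nanoparticle libraries lay above all vehicle libraries in 12 of the 35 genes (25.9% of all tested genes) and below them in 5 (26.2% of all tested genes). Thus the count of calls was close to the background, apart from fewer decreases, a difference that was not tested.

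Directions here are relative to the scaling that the deposited values carry. Scaled by recovered read totals, the median change of all tested genes was -0.281, with 1108 genes higher and 3613 lower in place of 1817 and 1733. Scaled to an equal sum of FPKM it was -0.436, with 884 higher and 4241 lower. In these scalings 10 and 8 of the 35 autophagy genes had positive log2 changes, against 26 in the deposited values. The 9 called genes kept their sign under both and under quantile normalization.

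**Figure D1:**
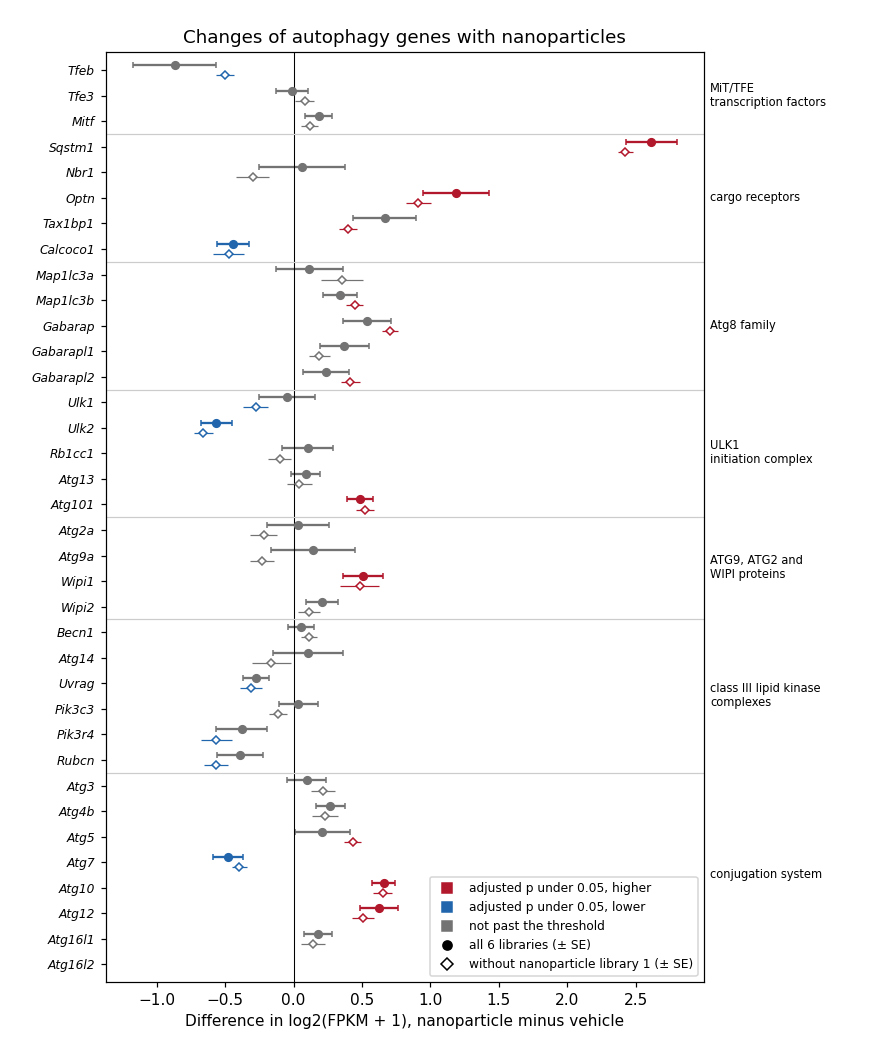
Difference in log2(FPKM + 1) between nanoparticle and vehicle libraries for each tested gene (x axis), by role, with all 6 libraries (filled circles) and without nanoparticle library 1 (open diamonds); bars are ± 1 SE and colours mark calls at a limma adjusted p under 0.05. Sqstm1, at 2.61, lies apart from the other genes, and Optn follows at 1.19. Atg16l2 was not tested and has no point.

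The largest change was in the cargo receptors, where Sqstm1 and Optn rose, Calcoco1 fell, and Tax1bp1 and Nbr1 did not pass the threshold. Sqstm1 (ENSMUSG00000015837, chromosome 11, 50199366 to 50210827, minus strand, GRCm38) encodes p62, which gathers ubiquitinated proteins into bodies and also binds KEAP1. It stood at 89.8, 90.6 and 87.0 FPKM in vehicle libraries 1 to 3 and at 716, 497 and 469 FPKM in nanoparticle libraries 1 to 3. Every nanoparticle library was far above every vehicle library, with library 1 the highest. The mean rose from 89.1 ± 1.89 to 561 ± 135 FPKM (SD, n = 3 each), 6.29-fold, and the log2 change was 2.61 (SE 0.186, limma adjusted p = 0.000248). Without nanoparticle library 1 it was 2.42 (adjusted p = 6.16e-07). Sqstm1 kept its call in all 15 alternatives tried, but the size depended on scaling. The log2 change was 2.27 with read totals, 2.15 with an equal sum of FPKM and 1.98 with quantile normalization. Each value rests on 6002 to 39252 reads. Of its annotated exon bases 17.3% are shared with Mrnip on the other strand, which had 1 to 18 reads in each library.

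Optn (ENSMUSG00000026672, chromosome 2, 5020642 to 5064051, minus strand) encodes optineurin, a receptor for ubiquitinated bacteria and mitochondria that the kinase TBK1 phosphorylates. Its level was 3.24, 2.86 and 3.13 FPKM with vehicle and 12.6, 7.17 and 6.19 FPKM with nanoparticles. The groups did not overlap, and nanoparticle library 1 was the highest. The mean rose from 3.08 ± 0.192 to 8.64 ± 3.43 FPKM (SD, n = 3 each), and on the log2 scale by 1.19 (SE 0.239, limma adjusted p = 0.0108) and of 0.91 without nanoparticle library 1 (adjusted p = 1.98e-04). Scaled to an equal sum of FPKM, the call was lost (0.89, adjusted p = 0.0582).

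Calcoco1 (ENSMUSG00000023055, chromosome 15, 102706777 to 102722178, minus strand), described as a receptor for autophagy of the endoplasmic reticulum, was the receptor that fell. It stood at 2.85, 2.72 and 3.16 FPKM with vehicle and at 1.99, 2.11 and 1.54 FPKM with nanoparticles, without overlap. The log2 change was -0.45 (SE 0.116, limma adjusted p = 0.0282) with all libraries and -0.47 without nanoparticle library 1 (adjusted p = 0.0102). This call was lost on leaving out vehicle library 1 (adjusted p = 0.0937), vehicle library 2 (0.0794), vehicle library 3 (0.119) or nanoparticle library 3 (0.0556).

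Tax1bp1, a receptor related to Calcoco1, stood at 17.9, 16.5 and 17.3 FPKM with vehicle and at 40.9, 23.8 and 22.2 FPKM with nanoparticles. The groups did not overlap, but the spread with nanoparticles was wide, and the log2 change of 0.66 (SE 0.232) did not pass the threshold (limma adjusted p = 0.071). Without nanoparticle library 1 it was smaller, 0.40, and passed (adjusted p = 0.00184). Nbr1, which works together with p62, was at 9.72, 9.14 and 9.65 FPKM with vehicle and at 17.1, 8.80 and 6.42 FPKM with nanoparticles. Library 1 lay above all vehicle libraries and libraries 2 and 3 lay below them, so the log2 change was 0.06 (SE 0.315, limma adjusted p = 0.897). Without library 1 it was -0.30 (adjusted p = 0.0654).

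The summed level of the 5 receptors was 123, 122 and 120 FPKM with vehicle and 789, 539 and 505 FPKM with nanoparticles. Sqstm1 made up 72.7%, 74.4% and 72.4% of this sum with vehicle and 90.8%, 92.2% and 92.8% with nanoparticles, a share that does not depend on the scaling between libraries. The mean share went from 73.1% ± 1.06 to 91.9% ± 1.03 (SD, n = 3 each, exact permutation test, two-sided, p = 0.1, adjusted p = 0.167 over 10 shares), and 0.1 is the smallest p that 3 against 3 libraries allow. The shares of the other 4 were lower in all nanoparticle libraries than in all vehicle libraries, at the same p: Tax1bp1 had 14.1% and 4.66%, Nbr1 7.80% and 1.69%, Optn 2.52% and 1.38%, and Calcoco1 2.39% and 0.316%. Optn thus rose in level and had a lower share. The shares are parts of the same sum, so the other shares together had to fall as that of Sqstm1 rose. These tests are not independent of each other.

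**Figure D2:**
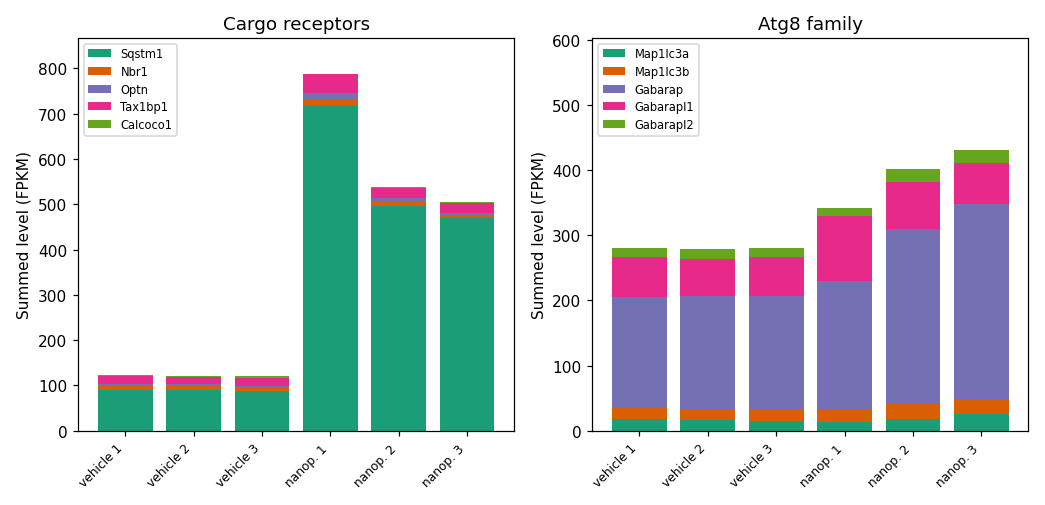
Summed FPKM of the 5 cargo receptors (left) and of the 5 Atg8 genes (right) in each library, 1 bar per library, with the part of each gene in colour; both y axes start at 0. The receptor sum is 120 to 123 FPKM with vehicle and 505 to 789 FPKM with nanoparticles, nearly all of it Sqstm1, and the Atg8 sum is 280 to 281 and 343 to 430 FPKM.

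The Atg8 family showed no call with all libraries. These small ubiquitin-like proteins are attached to the autophagosome membrane and are bound by the receptors. Gabarap was the most abundant of the 36 genes in the vehicle libraries, at 171, 174 and 174 FPKM, and stood at 198, 268 and 298 FPKM with nanoparticles. All nanoparticle libraries were above all vehicle libraries and library 1 was the lowest of them. The log2 change of 0.53 (SE 0.176) missed the threshold (limma adjusted p = 0.0596), and without library 1 it was 0.71 and passed (adjusted p = 1.03e-04). Map1lc3b, the LC3 protein most used as an autophagosome marker, stood at 15.9, 16.8 and 17.3 FPKM with vehicle and 18.3, 22.9 and 23.3 FPKM with nanoparticles. Its log2 change was 0.34 (limma adjusted p = 0.0787) with all libraries and 0.45 (adjusted p = 8.63e-04) without library 1. Gabarapl2 was at 13.9 to 15.5 FPKM with vehicle, at 13.4 FPKM in library 1, and at 19.1 and 20.5 FPKM in libraries 2 and 3, which gave 0.24 (adjusted p = 0.33) with and 0.41 (adjusted p = 0.00218) without library 1.

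Gabarapl1 and Map1lc3a passed with neither set of libraries and differed in how library 1 lay. Gabarapl1 stood at 61.1, 57.1 and 60.5 FPKM with vehicle and at 100, 73.3 and 62.9 FPKM with nanoparticles, so library 1 was the highest (log2 change 0.37, SE 0.182, limma adjusted p = 0.17). Of its exon bases 28.3% are shared with 1700101I11Rik on the other strand, which had 6 to 37 reads. Map1lc3a was at 18.7, 16.3 and 15.5 FPKM with vehicle and at 12.9, 18.2 and 26.0 FPKM with nanoparticles, with library 1 the lowest (log2 change 0.11, SE 0.244, limma adjusted p = 0.756). The 5 positive log2 changes depend on scaling: 3 were positive with read totals, 2 with quantile normalization and 1 with an equal sum of FPKM.

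Within the family the summed level was 281, 280 and 281 FPKM with vehicle and 343, 402 and 430 FPKM with nanoparticles. Gabarap made up 61.6% ± 0.678 of it with vehicle and 64.6% ± 6.0 with nanoparticles (SD, n = 3 each, exact permutation test, two-sided, p = 0.4). The Gabarapl1 share was 20.4% to 21.7% with vehicle but 29.2%, 18.2% and 14.6% in nanoparticle libraries 1 to 3 (exact permutation p = 1). Its mean difference of -0.525 percentage points became 0.701 without nanoparticle library 2, 2.51 without library 3 and -4.78 without library 1. The share of Gabarapl2 was lower in all nanoparticle libraries (5.21% and 4.48%, exact permutation p = 0.1, adjusted p = 0.167), and those of Map1lc3a (6.01% and 4.77%, exact permutation p = 0.3) and Map1lc3b (5.94% and 5.48%, exact permutation p = 0.2) overlapped between groups.

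**Figure D3:**
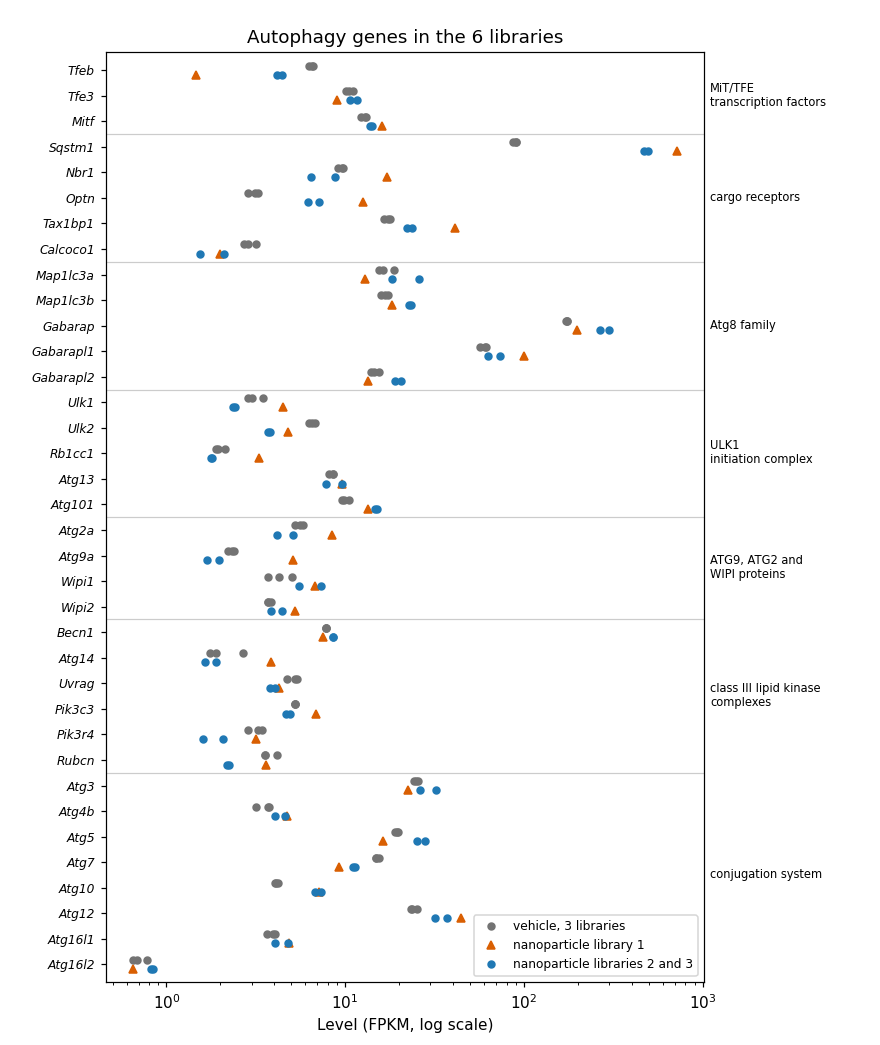
Level of each of the 36 genes in FPKM (x axis, log scale) by role, in the 3 vehicle libraries (grey circles), nanoparticle library 1 (orange triangles) and nanoparticle libraries 2 and 3 (blue circles). The vehicle points of a gene lie close together, and for genes such as Nbr1 and Atg9a the triangle lies on the other side of the vehicle points from the blue circles.

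None of the 3 MiT/TFE factors was called with all libraries. Tfeb (ENSMUSG00000023990, chromosome 17, 47737030 to 47792419, plus strand), which mTORC1 keeps in the cytoplasm by phosphorylation, stood at 6.53, 6.64 and 6.30 FPKM with vehicle and at 1.46, 4.16 and 4.42 FPKM with nanoparticles. All nanoparticle libraries lay below all vehicle libraries, and library 1 was far the lowest, on 135 reads. The log2 change of -0.87 had a wide error (SE 0.305, limma adjusted p = 0.072), and without library 1 it was -0.50 and passed (SE 0.0678, adjusted p = 8.51e-04). It also passed when the libraries were scaled by read totals (-1.15, adjusted p = 0.0189).

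Tfe3, a relative of Tfeb with overlapping targets, stood at 11.0, 10.1 and 10.5 FPKM with vehicle and 8.99, 10.7 and 11.6 FPKM with nanoparticles (log2 change -0.01, SE 0.117, limma adjusted p = 0.934). Scaled by read totals it was -0.33 and passed (adjusted p = 0.0468). Mitf, the most abundant of the 3, was at 12.9, 12.2 and 13.1 FPKM with vehicle and at 16.1, 13.7 and 14.1 FPKM with nanoparticles. Its groups did not overlap, but the log2 change of 0.18 (SE 0.101) did not pass (limma adjusted p = 0.22) and was negative, at -0.14, when scaled by read totals.

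In the ULK1 initiation complex Atg101 rose, Ulk2 fell and 3 genes did not pass. Atg101 (ENSMUSG00000037204, chromosome 15, 101284272 to 101290945, plus strand), the partner that stabilises ATG13, was the most abundant of the 5. It stood at 9.84, 10.5 and 9.60 FPKM with vehicle and at 13.5, 14.6 and 15.0 FPKM with nanoparticles, and nanoparticle library 1 was close to the other nanoparticle libraries. The mean rose 1.44-fold, and its log2 change was 0.48 (SE 0.094, limma adjusted p = 0.00944) and of 0.52 without nanoparticle library 1 (adjusted p = 5.87e-04). The call was lost without vehicle library 1 (adjusted p = 0.0559) or 3 (0.0629), and with scaling by read totals (log2 change 0.16, adjusted p = 0.189).

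Ulk2 (ENSMUSG00000004798, chromosome 11, 61775649 to 61855073, minus strand), a kinase that can stand in for ULK1, was at 6.53, 6.25 and 6.76 FPKM with vehicle and at 4.81, 3.72 and 3.79 FPKM with nanoparticles. The groups did not overlap, and the log2 change was -0.56 (SE 0.114, limma adjusted p = 0.0111), and -0.66 without nanoparticle library 1 (adjusted p = 2.69e-04). Leaving out vehicle library 1 (adjusted p = 0.0547) or 3 (0.0608) ended the call. Ulk1 itself, at 3.47, 2.87 and 3.01 FPKM with vehicle, was at 4.47 FPKM in nanoparticle library 1 and at 2.41 and 2.37 FPKM in libraries 2 and 3. The log2 change was -0.05 (SE 0.207, limma adjusted p = 0.882) with all libraries and -0.28 (adjusted p = 0.0346) without library 1. The scaffold gene Rb1cc1 (FIP200) showed the same order, at 1.90 to 2.14 FPKM with vehicle, 3.28 FPKM in library 1 and 1.77 and 1.81 FPKM in libraries 2 and 3. Atg13 overlapped between groups, at 8.08 to 8.55 and 7.86 to 9.63 FPKM.

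Of the genes for lipid supply and membrane growth, Wipi1 rose and Wipi2, Atg2a and Atg9a did not pass. Wipi1 (ENSMUSG00000041895, chromosome 11, 109573331 to 109611967, minus strand) encodes a protein that binds phosphatidylinositol 3-phosphate. It stood at 5.02, 3.69 and 4.27 FPKM with vehicle and at 6.79, 7.37 and 5.55 FPKM with nanoparticles, with a small gap between the groups. The log2 change was 0.51 (SE 0.143, limma adjusted p = 0.0367), and 0.48 without nanoparticle library 1 (adjusted p = 0.024). This was the least stable of the 9 calls, kept in 7 of 15 alternatives. It was lost without vehicle library 1 (adjusted p = 0.0545), 2 (0.139) or 3 (0.121), without nanoparticle library 2 (0.109), and with scaling by read totals (log2 change 0.22, adjusted p = 0.268).

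Atg9a, the lipid scramblase that arrives on vesicles, was at 2.33, 2.21 and 2.38 FPKM with vehicle and at 5.09, 1.97 and 1.68 FPKM with nanoparticles. Library 1 was above and the others were below the vehicle libraries, and the log2 change was 0.14 (SE 0.308, limma adjusted p = 0.762). Of its exon bases 31.8% are shared with Gm29253 on the same strand, so its reads may have been split or left out. Atg2a, the lipid transfer protein that works with it, was the most abundant of the 4, at 5.80, 5.56 and 5.24 FPKM with vehicle and at 8.48, 5.13 and 4.14 FPKM with nanoparticles. It showed the same order, and its log2 change was 0.03 (SE 0.226, limma adjusted p = 0.925), and -0.22 without library 1 (adjusted p = 0.0867). Wipi2, which recruits ATG16L1, was at 3.69 to 3.87 and 3.86 to 5.26 FPKM.

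No gene of the class III lipid kinase complexes was called with all libraries, and 3 of 6 were called lower without nanoparticle library 1, where 30.5% of all tested genes were. Becn1, the most abundant and shared by both complexes, stood at 7.83, 7.86 and 7.81 FPKM with vehicle and at 7.47, 8.53 and 8.54 FPKM with nanoparticles. Its log2 change was 0.05 (SE 0.0937, limma adjusted p = 0.704), and 43.9% of its exon bases are shared with Cntd1 on the other strand, which had at most 5 reads. As the counting strand is not given, reads in the shared bases may have been left out of both genes. Rubcn (Rubicon), an inhibitor of the UVRAG complex, was at 3.54, 4.16 and 3.55 FPKM with vehicle and at 3.60, 2.17 and 2.24 FPKM with nanoparticles. Library 1 lay among the vehicle libraries and the other nanoparticle libraries lay below them, so the log2 change was -0.39 (limma adjusted p = 0.124) with library 1 and -0.57 (adjusted p = 0.00171) without it.

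Pik3r4, which encodes the VPS15 subunit, showed this order too. It was at 2.86 to 3.44 FPKM with vehicle, at 3.17 FPKM in library 1 and at 2.08 and 1.60 FPKM in libraries 2 and 3, and its log2 change went from -0.38 (limma adjusted p = 0.17) to -0.56 (adjusted p = 0.00447) without library 1. Uvrag, the subunit of the endosomal complex, was at 5.23, 5.40 and 4.70 FPKM with vehicle and at 4.29, 4.03 and 3.82 FPKM with nanoparticles, without overlap (log2 change -0.27, limma adjusted p = 0.0725, and -0.31 with adjusted p = 0.0146 without library 1). Antisense Gm45187 covers 17.6% of its exon bases and had at most 1 read. Pik3c3, the catalytic subunit, was at 5.22 to 5.27 FPKM with vehicle, 6.88 FPKM in library 1 and 4.90 and 4.66 FPKM in libraries 2 and 3. Atg14, the subunit of the complex that starts autophagosomes, overlapped between groups at 1.76 to 2.70 and 1.64 to 3.83 FPKM.

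In the conjugation system Atg10 and Atg12 rose, Atg7 fell and 4 tested genes did not pass. ATG7 is the activating (E1-like) enzyme of both conjugation reactions, ATG10 the E2-like enzyme that passes ATG12 to ATG5, and ATG3 the E2-like enzyme that passes Atg8 proteins to lipid. Atg10 (ENSMUSG00000021619, chromosome 13, 90935356 to 91223968, minus strand) stood at 4.21, 4.05 and 4.10 FPKM with vehicle and at 7.17, 7.28 and 6.80 FPKM with nanoparticles. Library 1 lay within the range of the other nanoparticle libraries. The mean rose 1.72-fold from 4.12 ± 0.0796 to 7.08 ± 0.253 FPKM (SD, n = 3 each), and its log2 change was 0.66 (SE 0.0851, limma adjusted p = 0.00202) and of 0.65 without library 1 (adjusted p = 2.85e-04). The call rests on 138 to 225 reads per library. Scaled to an equal sum of FPKM, its log2 change was 0.29 and did not pass (adjusted p = 0.106).

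Atg12 (ENSMUSG00000032905, chromosome 18, 46730144 to 46741580, minus strand), the ubiquitin-like protein itself, was at 23.5, 23.2 and 25.3 FPKM with vehicle and at 44.2, 37.2 and 32.0 FPKM with nanoparticles. The groups did not overlap, and the log2 change was 0.62 (SE 0.139, limma adjusted p = 0.0158), and 0.51 without nanoparticle library 1 (adjusted p = 0.00169). It was lost without vehicle library 1 (adjusted p = 0.071), 2 (0.0751) or 3 (0.0568), without nanoparticle library 2 (0.0515), and with scaling by read totals (log2 change 0.29, adjusted p = 0.162) or quantile normalization (0.33, adjusted p = 0.187). The deposited values give whole reads for a length of 2492 bases, not the annotated 7711, so its level relative to other genes depends on the transcript the authors used.

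Atg7 (ENSMUSG00000030314, chromosome 6, 114643097 to 114860614, plus strand), whose promoter is printed above, went the other way. It stood at 14.8, 14.9 and 15.4 FPKM with vehicle and at 9.21, 11.0 and 11.3 FPKM with nanoparticles, with library 1 the lowest. The mean was 15.0 ± 0.312 and 10.5 ± 1.15 FPKM (SD, n = 3 each), and the log2 change was -0.48 (SE 0.108, limma adjusted p = 0.0165), and -0.40 without nanoparticle library 1 (adjusted p = 0.00113). Leaving out vehicle library 1 (adjusted p = 0.0692), 2 (0.0748) or 3 (0.0822) ended the call. Atg3, which shares the extended element, did not pass: it was at 24.3, 24.9 and 25.4 FPKM with vehicle and at 22.4, 26.2 and 32.1 FPKM with nanoparticles (log2 change 0.09, SE 0.145, limma adjusted p = 0.658).

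Atg5, which receives ATG12, was at 19.7, 19.5 and 18.9 FPKM with vehicle, at 16.3 FPKM in nanoparticle library 1 and at 25.1 and 27.9 FPKM in libraries 2 and 3. The log2 change was 0.21 (SE 0.2, limma adjusted p = 0.469) with all libraries and 0.43 (adjusted p = 0.00133) without library 1. The protease gene Atg4b, which trims Atg8 proteins, was at 3.17 to 3.73 and 4.04 to 4.75 FPKM, without overlap (log2 change 0.27, limma adjusted p = 0.0986). Atg16l1, which places the conjugate on the membrane, overlapped at 3.64 to 4.03 and 4.03 to 4.83 FPKM. Its relative Atg16l2 was at 0.649 to 0.846 FPKM over the 6 libraries, on 90 to 138 reads.

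Nanoparticle library 1 was the highest of the 6 libraries in 17 of the 35 tested genes (48.6%, against 29.2% of all tested genes) and the lowest in 8 (22.9%, against 32.5%). In 6 genes (17.1%) the vehicle libraries all lay between a higher library 1 and lower libraries 2 and 3: Nbr1, Ulk1, Rb1cc1, Atg2a, Atg9a and Pik3c3. That order was found in 8.23% of all tested genes. The opposite order was found in 4 (11.4%, against 10.8%): Gabarapl2, Becn1, Atg3 and Atg5. For these 10 genes an average over the 3 nanoparticle libraries joins values on both sides of the controls. The difference between library 1 and the mean of libraries 2 and 3 correlated with log2 exon length at a Pearson r of 0.362 and a Spearman rho of 0.32 over the 35 genes, and at 0.327 and 0.419 over all 10682, where genes share the same libraries and are not independent. The part of transcript length or RNA quality in these values was not tested.

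**Figure D4:**
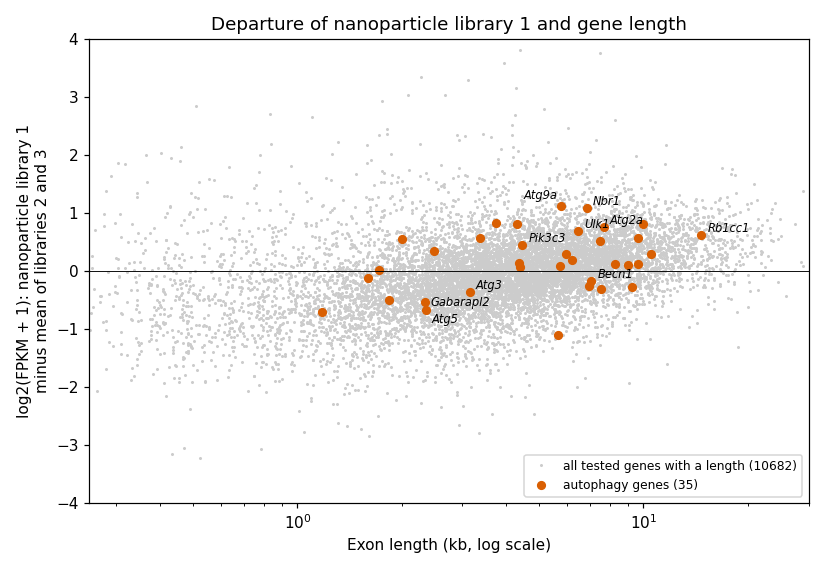
Departure of nanoparticle library 1 from the mean of nanoparticle libraries 2 and 3 in log2(FPKM + 1) (y axis) against exon length in kb (x axis, log scale), for all tested genes (grey) and the 35 autophagy genes (orange); names mark the 10 genes whose vehicle libraries lie between. Gabarapl2 and Atg5 lie below 0 and the longer Nbr1 and Atg9a above it, but the points scatter widely: long genes such as Becn1 and Tfeb lie below 0 and the short Gabarapl1 lies above it. A further 158 grey points lie outside the axes.

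Other genes of the pathway were counted from 4 further lists, chosen with earlier results of these data known. Their counts beside the shares of all tested genes are therefore descriptions, not independent evidence. Of 7 genes for the TBK1 kinases and their adaptors, which act on the receptors, and for the KEAP1 and NRF2 pair, 6 rose and 1 fell, where 17.0% of all tested genes rose and 16.2% fell, and the median log2 change was 0.853. Tank, an adaptor of TBK1, rose from 9.87, 11.6 and 11.9 to 43.9, 38.4 and 34.1 FPKM (log2 change 1.71, limma adjusted p = 3.27e-04). Azi2 (NAP1), another TBK1 adaptor, was at 5.78 to 6.32 FPKM with vehicle and 12.4 to 16.8 FPKM with nanoparticles (log2 change 1.07, adjusted p = 0.00185), and Keap1, which holds NRF2 down, was at 7.57 to 8.07 and 12.6 to 14.3 FPKM (0.70, adjusted p = 0.00241). Named after their values were seen, Tbk1 rose (0.85, adjusted p = 0.00339), Ikbke rose (1.49, adjusted p = 0.00352) and the adaptor gene Tbkbp1 fell (-0.47, adjusted p = 0.00762). Nfe2l2, also named after its values were seen, encodes NRF2, a factor known to act on Sqstm1, and rose, at 111 to 122 FPKM with vehicle and 144 to 190 FPKM with nanoparticles (0.57, adjusted p = 0.026). All 7 kept their sign under the other scalings and the call counts without nanoparticle library 1 were again 6 and 1. The call of Nfe2l2 was lost with read totals (0.23, adjusted p = 0.21) and with quantile normalization (0.07, adjusted p = 0.568). Scaled to an equal sum of FPKM, the increases of Nfe2l2 (0.10, adjusted p = 0.414), Tbk1 (0.41, adjusted p = 0.103) and Keap1 (0.29, adjusted p = 0.144) did not pass. That left 3 higher and 1 lower, where 884 of all 10682 tested genes were higher and 4241 lower.

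The calls in the other 3 lists are given beside the shares of all tested genes, 17.0% higher and 16.2% lower with all libraries and 34.3% and 30.5% without nanoparticle library 1. Scaled by read totals, 1108 of all 10682 tested genes were higher and 3613 lower. With an equal sum of FPKM these numbers were 884 and 4241. Of 29 tested genes of autophagosome formation and fusion, a list that also held the factor Tfec, 3 rose and 2 fell (median -0.0204). Without nanoparticle library 1 the counts were 9 and 10. They were 0 and 10 with read totals and 0 and 11 with an equal sum of FPKM. The smallest adjusted p were those of Trp53inp1, an Atg8-binding stress protein (log2 change -1.26, limma adjusted p = 4.49e-04), the fusion SNARE Ykt6 (0.54, adjusted p = 0.00541) and the protease Atg4a (0.48, adjusted p = 0.00663). Both increases were lost with read totals (0.21, adjusted p = 0.116, and 0.18, adjusted p = 0.14). Of 14 other selective receptors 2 rose and 0 fell (median 0.223, 7 and 2 without library 1, 1 and 1 with read totals, 1 and 2 with an equal sum of FPKM): the glycogen receptor Stbd1 (0.84, adjusted p = 0.0122) and the endoplasmic reticulum receptor Tex264 (0.49, adjusted p = 0.0142), the latter not with read totals (0.16, adjusted p = 0.239). Bnip3, a mitophagy receptor named after its values were seen, was at 43.4 FPKM in nanoparticle library 1 but at 8.83 and 8.73 FPKM in libraries 2 and 3 and at 6.41 to 7.30 FPKM with vehicle. Of 29 tested genes of mTORC1, the Rag GTPases and AMPK, which control ULK1 and TFEB, 2 rose and 2 fell (median -0.0556). The counts were 11 and 10 without library 1, 0 and 6 with read totals and 0 and 8 with an equal sum of FPKM. Deptor, an mTOR inhibitor, fell, at 2.85 to 2.99 FPKM with vehicle and 0.628 to 0.865 FPKM with nanoparticles (log2 change -1.19, adjusted p = 4.07e-04). Prkag2, an AMPK subunit, fell too, at 3.23 to 3.57 and 1.31 to 1.60 FPKM (-0.83, adjusted p = 0.00136). Akt1s1 (PRAS40), which binds mTORC1, rose (0.64, adjusted p = 0.0107), but not with read totals (0.32, adjusted p = 0.0767).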

How the data were processed

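Expression of 23398 genes in 6 RNA sequencing libraries was deposited as 2 tables with identical values (140388 of 140388). The values were treated as FPKM computed by the authors, a unit inferred here, because no header or label names it. The submitters' processing notes list CASAVA, STAR 2.5, HTSeq, edgeR 3.16.5 and DESeq2 2 and the builds hg19 and mm10, with no roles. The strand used in counting is not given in the sources used here. Reads in exon bases shared with a gene on the other strand may therefore have been left out, and few reads in that gene do not settle this. Multiplying the values by merged exon lengths of GENCODE M21 (GRCm38), which 23388 gene IDs matched, and dividing by a unit for each library gave whole reads within 0.01 for 95.7% to 96% of values. Lengths came from the annotation for 22557 genes and from the values for 841, and all read numbers are these recovered reads. The 10682 genes that reached 1 FPKM in 3 or more libraries entered the tests, and log2(FPKM + 1) was fitted with limma 3.58.1 (R 4.3.3, lmFit, eBayes with trend), with group as the term, Benjamini-Hochberg adjustment and a threshold of 0.05. This scale understates changes of low genes. The fit was tried on simulated data in which all libraries had the spread of the vehicle libraries. That trial did not cover the wider spread between the nanoparticle libraries. Shares were compared with exact permutation tests over libraries (scipy 1.17.1, Python 3.11.15).

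The genes, their roles and the lists were chosen with earlier results of these data known. All 36 genes are named, with values per library for called genes and the most abundant of each role. Of other lists, up to 3 called genes with the smallest adjusted p are named, plus those said to be chosen later. Alternatives changed the pseudocount, filter, scaling, moderation, model (limma-voom on recovered reads), replicate block and libraries. A recovered read number gives counting error alone, and without molecular identifiers reads may repeat a molecule.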

Additional observations from a re-analysis of the deposited data

How the results depend on the processing

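Under the 15 alternatives Sqstm1 kept its call in 15, Optn and Atg10 in 14, Ulk2 in 13, Atg101 and Atg7 in 11, Atg12 and Calcoco1 in 8 (of 14 for Calcoco1) and Wipi1 in 7, and none of the 9 changed sign. Scaling by recovered read totals gave 3 of the 35 autophagy genes higher and 8 lower (Tfeb, Tfe3, Uvrag, Pik3r4 and Rubcn added), where 1108 of all 10682 tested genes were higher and 3613 lower. An equal sum of FPKM gave 1 and 10, where 884 and 4241 of all tested genes were called. There Becn1 and Atg3 reversed to -0.393 (limma adjusted p = 0.0184) and -0.368 (adjusted p = 0.0288). Leaving out 1 library gave 3 to 11 genes higher, 0 to 8 lower and 2141 to 6923 calls among all genes, the highest counts without nanoparticle library 1. Without vehicle library 1 or 3, Sqstm1, Optn and Atg10 remained. The Gabarapl1 share difference ranged from -4.78 to 2.51 percentage points. With voom and with pseudocount 0.1, which both kept the deposited scaling, all 26 positive log2 changes stayed positive. The trend, filter and replicate block settings leave the log2 change itself the same, so they could not change a sign. Without the filter the calls of Calcoco1 and Wipi1 were lost. The causes were not tested. Library numbers are not said to pair cultures, and deviations of same-numbered libraries correlated at 0.0654, 0.113 and -0.0577. Those of differently numbered libraries correlated at -0.129 to 0.108. A replicate block gave 2785 calls in place of 3550, 5 autophagy genes higher and 1 lower, without Calcoco1, Wipi1 and Atg7. Depth limits the genes on few reads, such as Atg16l2.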
